A study of Mus musculus with 2 samples.

Results

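The genes described here are the interleukins, the tumour necrosis factor (TNF) family, their receptors, the subunits and inhibitors of the transcription factor NF-κB, and the adhesion molecules and colony-stimulating factors that this system is known to induce. They were chosen by gene name on the array: names beginning with Il and a number, Tnf or Nfkb, the Rel genes, and Icam1, Vcam1, Sele, Selp, Csf1 and Csf2, without Tnfrsf11b. The arrays carried 143 such genes on 205 array features, and 110 of them, on 140 features, were well above background in at least 1 region on both arrays, of 21549 genes measured in all. RNA came from the aortic wall of wild-type C57Bl/6 mice, an inbred laboratory strain, aged 16 weeks and of both sexes. The arch, the region prone to atherosclerosis, comprised the aortic root, the arch itself and the adjoining 2 mm of thoracic aorta. The central thoracic aorta, the resistant region, was the 6 mm beyond it. All aortas had been flushed with Triton X-100, a detergent, to strip the endothelium, and each region was 1 pool of RNA from 6 animals (3 males and 3 females).

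Both pools were labelled in both dyes and hybridised together on 2 Agilent mouse arrays: array 1 carried the arch in Cy5, and array 2 carried it in Cy3. The comparison asks which transcripts differ between the prone and the resistant wall in wild-type animals. Each value below is the mean over both arrays of the log2 arch-to-thoracic ratio, with ± giving how far each array lay from the mean. This error is technical: a dye swap of 1 pair of pools is 1 replicate, so no test between the regions was possible and p-values are absent. Calls required a ratio past 1.5-fold (0.58 on the log2 scale) in 1 direction on each array, and a 1.2-fold rule (0.26) was applied beside it.

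Interleukins and TNF-family ligands bind paired or trimeric receptors on the cell surface. TNF, interleukin-1 and Toll-like receptors activate kinases that remove the IκB inhibitors, and the NF-κB subunits then enter the nucleus and switch on cytokines, adhesion molecules and, as feedback, the inhibitors themselves. In the artery wall this pathway is known for recruiting monocytes, through Vcam1 and Icam1, where lesions later form.

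The promoters of 3 members are shown as examples of the sequence NF-κB is known to bind. They are the 3 with the lowest ratios among the 16 members found to carry it. Each runs from 250 bases before the transcription start to 50 bases after it, in the RefSeq annotation of GRCm38.p6, read 5′ to 3′ on the gene's strand, and capitals mark matches to GGANTTTCC or GGANTTCCC on either strand. Icam1, an adhesion receptor for leukocyte integrins (chr9:21015690-21015989, plus strand), had 1 match. Nfkbia, the inhibitor IκBα (chr12:55492598-55492897, minus strand), had 2. Tnfaip2, known as a gene that TNF induces (chr12:111442411-111442710, plus strand), had 1.
Icam1: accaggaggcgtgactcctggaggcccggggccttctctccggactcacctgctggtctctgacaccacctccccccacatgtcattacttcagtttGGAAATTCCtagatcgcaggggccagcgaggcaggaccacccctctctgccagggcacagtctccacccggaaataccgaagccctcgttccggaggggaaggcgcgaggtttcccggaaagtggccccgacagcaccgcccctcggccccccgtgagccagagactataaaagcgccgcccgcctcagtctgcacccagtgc
Nfkbia: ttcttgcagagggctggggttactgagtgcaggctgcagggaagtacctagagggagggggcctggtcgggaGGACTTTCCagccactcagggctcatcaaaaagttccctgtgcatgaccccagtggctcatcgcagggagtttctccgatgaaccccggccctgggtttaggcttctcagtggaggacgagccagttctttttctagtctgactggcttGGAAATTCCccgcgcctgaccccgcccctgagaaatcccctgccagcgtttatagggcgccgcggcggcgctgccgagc
Tnfaip2: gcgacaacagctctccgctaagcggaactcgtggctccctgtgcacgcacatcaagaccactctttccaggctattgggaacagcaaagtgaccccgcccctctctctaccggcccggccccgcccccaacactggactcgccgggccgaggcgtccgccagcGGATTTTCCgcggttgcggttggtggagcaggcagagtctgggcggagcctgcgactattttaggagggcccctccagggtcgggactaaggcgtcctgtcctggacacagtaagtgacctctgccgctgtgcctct

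These 3 genes had the lowest ratios of the 16 members with a match, so their signs below 0 carry no information on the motif. Their values are given with their roles further on. Among members, 85 could be matched to the promoter table and 16 of them (18.8%) held a match, against 769 of 27025 genes in the table (2.85%). Counted by promoter, 18 of 103 member promoters (17.5%) and 810 of all 32851 (2.47%) held one. The 2 motifs can overlap on opposite strands, as at one promoter of Nfkb2, and were then counted once per promoter. The 16 members with a match had a median ratio of −0.02 (lowest −0.28, highest 0.05), with 11 below 0, 6 of them on both arrays. The 69 matched members without one had a median of 0.02, with 24 below 0, 13 of them on both arrays. The difference between these groups was not tested. A match describes these letters in this window and does not show binding.

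Many of these genes gave dim spots in the aortic wall, and 66 of the 110 measured members lay below the median brightness of all measured genes. In all 4 channels, 103 of the 110 measured members exceeded the 95th percentile of the 314 negative control spots; the exceptions were the ligands Tnfsf8, Il1b, Il3, Il5 and Il23a and the receptors Il5ra and Il1rapl2. That percentile was 14.2 and 16.4 units above local background in Cy5 and 34.9 and 38.6 in Cy3. Dim ratios are pulled toward 0 by the offset of 50 added in background correction, so ratios without the offset are given beside some of the named members, mostly the dim ones. The 33 members not well above background on both arrays in either region included Il1rn, which blocks the interleukin-1 receptor, the NF-κB subunit Rel, E-selectin (Sele), Csf2, Il7 and its receptor, Il17 and the ligands Tnfsf10 (TRAIL) and Tnfsf11 (RANKL). Il33 was not found by name. No member was saturated.

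**Figure D1:**
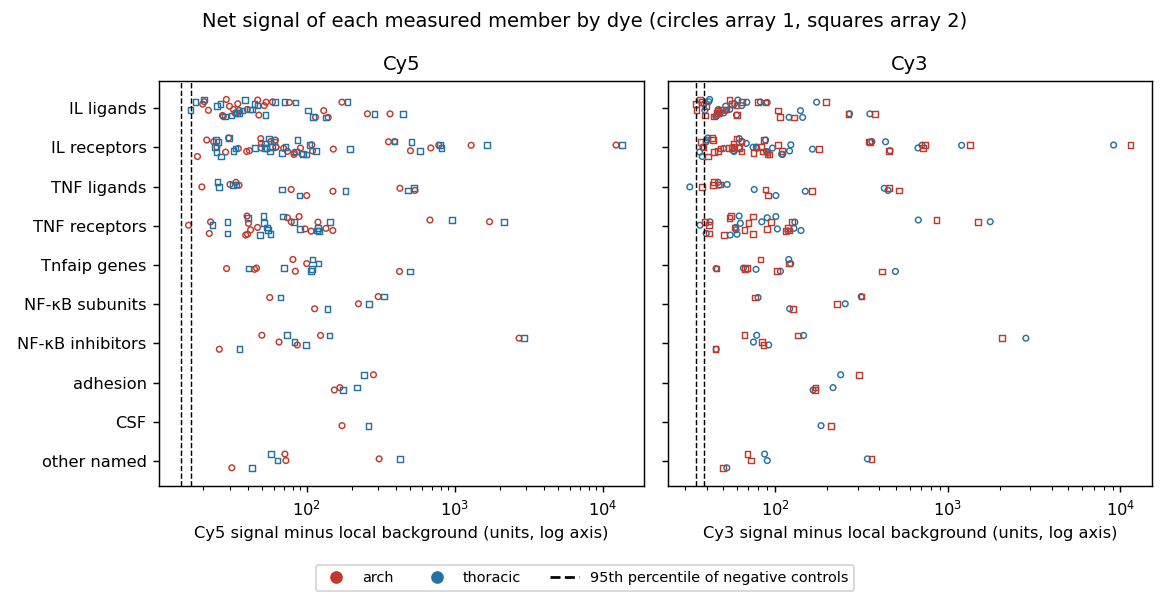
Net signal of each of the 110 measured members, in units above local background on a log axis, by role. Cy5 is on the left and Cy3 on the right, circles are array 1 and squares array 2, red is the arch and blue the thoracic aorta, and dashed lines are the 95th percentile of the negative controls on each array (14.2 and 16.4 in Cy5, 34.9 and 38.6 in Cy3). Many interleukin and TNF-family members lie close to those lines in both regions.

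No member passed the 1.5-fold rule in either direction. Over all measured genes, 0.255% passed as higher and 0.227% as lower. At 1.2-fold, 2 of 110 members passed as higher, Vcam1 and the B cell survival factor Tnfsf13b, against 1.51% of all genes, and 0 passed as lower, against 1.02%. The members' median ratio was 0.01 against 0.00 for all genes, with 63 above 0 and 47 below (all genes 11073 and 10476). Their spread was an SD of 0.10 against 0.13, and 93.6% lay within 0.2 of 0, against 93.1% of all genes. The sign was the same on both arrays for 62 of 110 members (56.4%) and for 54.8% of all genes. Across members, which are not independent replicates, the arrays' ratios had a Pearson r of 0.54 and a Spearman rho of 0.27, and across all genes 0.58 and 0.25.

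**Figure D2:**
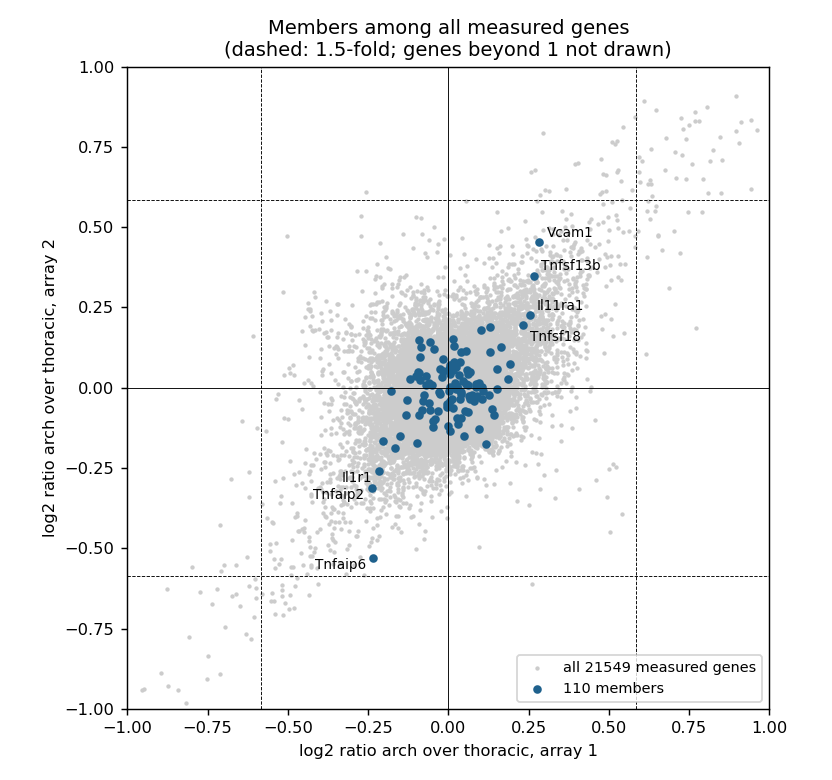
Log2 ratio of arch over thoracic aorta on array 1 (x axis) and array 2 (y axis) for all 21549 measured genes (grey) and the 110 members (blue); dashed lines mark 1.5-fold, and genes beyond 1 are not drawn. No member lies past 1.5-fold on both arrays; Vcam1 and Tnfsf13b lie at the upper right and Tnfaip6 at the lower left.

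The calls depended on how dim spots were treated. Without the offset, 0 members passed 1.5-fold as higher (all genes 0.548%) and 0 as lower (0.483%). At 1.2-fold, 4 then passed as higher (all genes 3.12%), Vcam1, Tnfsf13b, Tnfsf18 and Il17re, and 3 as lower (all genes 2.11%), Tnfaip6, Tnfaip2 and Nfkbiz. By the scanner software's own ratios, 0 members passed 1.5-fold as higher (all genes 0.719%) and 1, Tnfaip6, as lower (all genes 0.599%). At 1.2-fold the same 4 passed as higher (all genes 3.93%), and 4 as lower (all genes 2.8%), Il1b joining the 3 above. With each array centred on its median in place of the loess fit, 0 members passed 1.5-fold as higher (all genes 0.13%) or as lower (all genes 0.348%), 0 passed 1.2-fold as higher (all genes 0.659%) and 4 as lower (all genes 3.13%), Icam1, Il1r1, Tnfaip2 and Tnfaip6. That centring moved the median of all genes to −0.04 and of the members to −0.04, with 39 members above 0 and 71 below (all genes 7420 and 14129). With the mean over a gene's probes, 0 members passed 1.5-fold (all genes 0.19% higher and 0.19% lower) or 1.2-fold (all genes 1.3% higher and 0.812% lower). On array 1 alone, 2 members were at least 1.2-fold higher (all genes 3.24%) and 0 lower (all genes 2.28%). On array 2 alone, 2 were higher (all genes 2.73%) and 2 lower (all genes 2.1%).

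**Figure D3:**
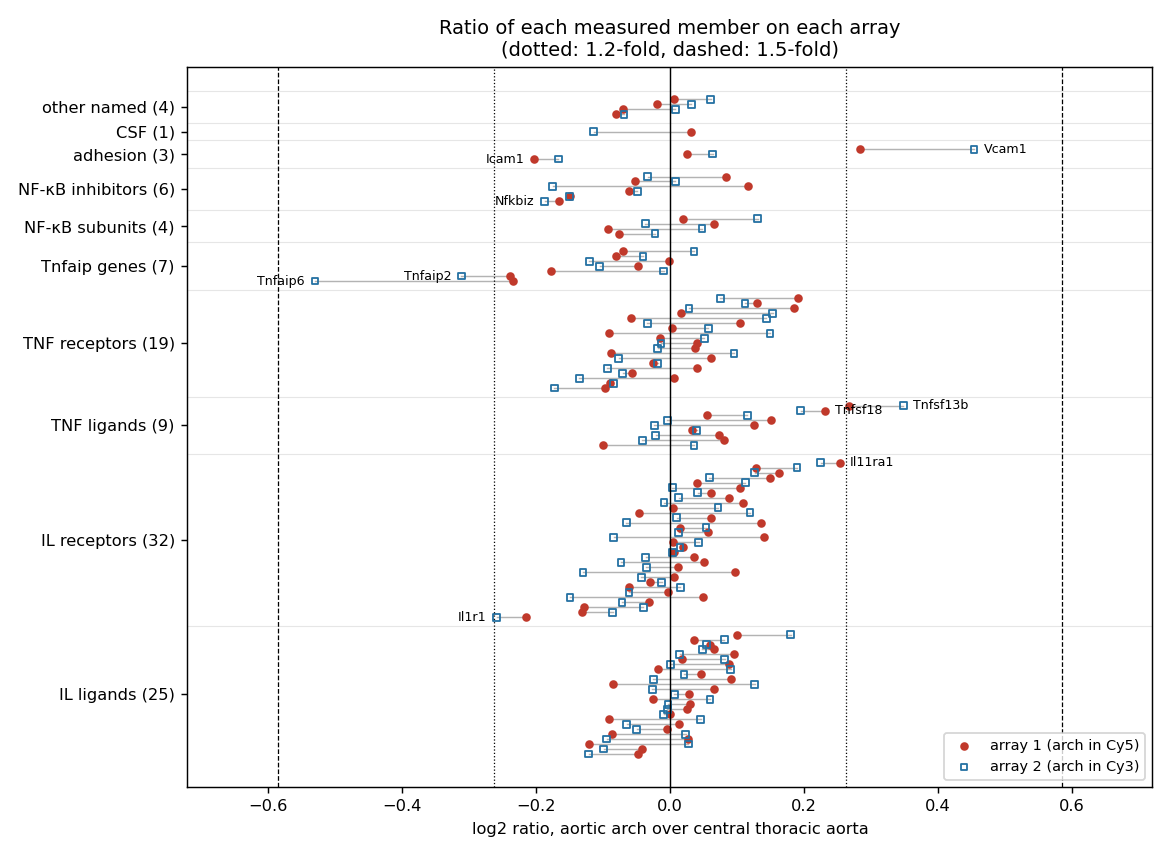
Log2 ratio of arch over thoracic aorta (x axis) for each of the 110 measured members, grouped by role with the number of genes; red circles are array 1, blue squares array 2, and lines join the arrays. All 7 genes named Tnfaip have a mean below 0, and 8 of 9 TNF-family ligands, by their brightest probe, have a mean above 0.

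Of the adhesion molecules, Vcam1 was higher in the arch and Icam1 lower, by less. Vcam1, which binds the integrin VLA-4 on monocytes and lymphocytes, gave net signals of 281 (Cy5) and 305 (Cy3) units in the arch and 239 (Cy3) and 244 (Cy5) in the thoracic aorta. Its ratios were 0.28 and 0.45 on arrays 1 and 2, a mean of 0.37 ± 0.09 or 1.29-fold, the highest of the members. Within each dye the arch spot was the brighter, and a second Vcam1 probe gave 0.26 ± 0.05. Icam1 gave −0.20 and −0.17, a mean of −0.18 ± 0.02, or −0.24 without the offset. Its other probe, close to the negative controls, gave −0.06 ± 0.06, or −0.29 without the offset. P-selectin (Selp), which starts leukocyte rolling, gave 0.04 ± 0.02, or −0.06 with median centring, and −0.0070 ± 0.01 at another probe.

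Endothelial cells are a known source of all 3 adhesion molecules, so their markers were read beside them. Of 9 endothelial markers 8 were measured, 4 above 0 and 4 below, from −0.16 (Esam) to 0.26 (Vwf), with Pecam1 at −0.02, Cdh5 at −0.05 and Tie1 not well above background. Their summed normalised signal was 836 and 848 units in the arch on arrays 1 and 2, against 785 and 819 in the thoracic aorta. These sums include the offset added in background correction for every gene, so for dim genes they understate any difference between the regions. Of 4 measured platelet markers, another source of Selp, 2 lay above 0, Ppbp (0.38) and Gp9 (0.28). The other 2 lay below, Pf4 (−0.28) and Itga2b (−0.05). The part of these transcripts in the Vcam1, Icam1 and Selp values was not tested.

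The TNF-family ligands lay mostly above 0, with 8 of 9 positive, 4 of them on both arrays, and a median of 0.05. Tnfsf18 (GITR ligand), which stimulates T cells, gave 0.23 and 0.20, a mean of 0.21 ± 0.02, or 0.37 without the offset. Tnfsf7, now Cd70, the ligand of Cd27, gave 0.09 ± 0.03, or 0.26 without the offset. Tnf itself gave 0.07 and −0.02, a mean of 0.03 ± 0.05, so its arrays lay on opposite sides of 0. Tnfsf12 (TWEAK), ligand of Tnfrsf12a, gave 0.04 ± 0.00, turning to −0.12 with median centring. The group median kept its sign in every alternative processing, but under median centring 6 of 9 were above 0.

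Tnfsf13b (BAFF) is the one member whose probes disagreed by at least 0.5. Its brightest probe, annotated to the cDNA AK034121, gave 0.27 and 0.35, a mean of 0.31 ± 0.04. The probe annotated to the RefSeq transcript NM_033622 gave −0.82 and −0.64, a mean of −0.73 ± 0.09. The latter had net signals of 139 and 163 units in the arch and 301 and 305 in the thoracic aorta, and the former 537 and 521 against 451 and 481. Counted by array feature rather than gene, this RefSeq feature was the only one of 140 member features to pass 1.5-fold as lower (all kept features 0.183%), and 0 passed as higher (0.21%). The files give no probe positions within the gene, so no direction is given for Tnfsf13b. When each gene was read from its brightest probe with a RefSeq accession, 1 member, Tnfsf13b, passed 1.5-fold as lower (all genes 0.232%) and 0 as higher (0.246%). At 1.2-fold, 1 passed as lower (all genes 0.998%) and 1, Vcam1, as higher (all genes 1.48%). With the RefSeq probe in its place, 7 of 9 TNF-family ligands lay above 0, with a median of 0.04.

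**Figure D4:**
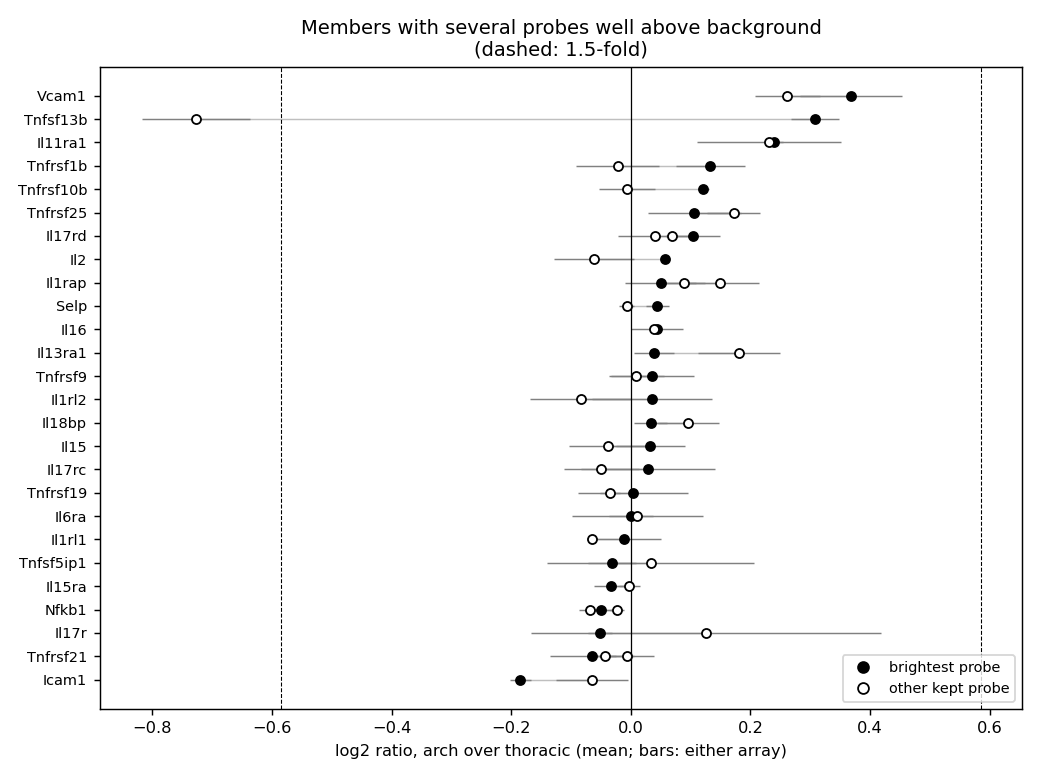
Log2 ratio of arch over thoracic aorta (x axis) of every kept probe of the 26 members with several; filled circles are the brightest probe, open circles the others, and bars reach either array. The probes of Tnfsf13b lie at 0.31 and −0.73, while the probes of Vcam1 and of Il11ra1 lie on the same side of 0.

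Among all 26 members with several kept probes, the median distance between a member's lowest and highest probe was 0.07, and for 11 the probes lay on both sides of 0. The other 84 members rest on 1 kept probe.

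The TNF receptors showed smaller values, with 12 of 19 above 0, 5 of them on both arrays, 4 below 0 on both, and a median of 0.01. Tnfrsf1a, the widely expressed receptor of TNF, gave −0.10 and −0.17, a mean of −0.13 ± 0.04. Tnfrsf1b, the other receptor of TNF, gave 0.19 and 0.08, a mean of 0.13 ± 0.06, with −0.02 ± 0.07 at another probe. The signs of both genes' values were kept under every alternative, and the difference between them was not tested. The TRAIL receptor Tnfrsf10b gave 0.12 ± 0.01 (0.20 without the offset), with −0.0060 ± 0.05 at another probe. The death receptor Tnfrsf25 gave 0.11 ± 0.08 and the GITR receptor Tnfrsf18 −0.09 ± 0.00 (−0.20 without the offset). The TWEAK receptor Tnfrsf12a gave 0.08 ± 0.07, turning to −0.08 with median centring. Tnfrsf19 gave −0.09 and 0.10 and was well above background in the arch on 1 array only.

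All 7 measured genes named Tnfaip, for TNF-induced protein, had a mean ratio below 0, 6 of them on both arrays, with a median of −0.08. Of these, Tnfaip8l1 and Tnfaip8l2 bear the name as relatives of Tnfaip8. Tnfaip6 (TSG-6), a secreted hyaluronan-binding protein, gave net signals of 44.3 (Cy5) and 67.1 (Cy3) units in the arch and 77.4 (Cy3) and 108 (Cy5) in the thoracic aorta. Its ratios were −0.23 and −0.53, a mean of −0.38 ± 0.15, the lowest of the members. Without the offset the mean was −0.69, and by the scanner software −0.76. Within each dye the thoracic spot was the brighter. Tnfaip2, whose promoter is shown above, gave −0.24 and −0.31, a mean of −0.28 ± 0.04, or −0.44 without the offset. Tnfaip8, a regulator of cell death, gave −0.18 and −0.01. Tnfaip3 (A20), the deubiquitinase that ends NF-κB signalling, gave −0.07 and 0.04, a mean of −0.02 ± 0.05. The signs of Tnfaip2, Tnfaip6 and Tnfaip8 were kept under every alternative.

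Interleukin receptors covered both sides of 0, with 20 of 32 above, 15 of them on both arrays, and a median of 0.03. Il1r1, the signalling receptor of interleukin-1, gave net signals of 355 and 354 units in the arch and 436 and 509 in the thoracic aorta. Its ratios were −0.22 and −0.26, a mean of −0.24 ± 0.02 or 1.18-fold lower, and −0.39 with median centring. Il4ra gave −0.11 ± 0.02 and Il10ra −0.08 ± 0.04. Il10rb, a chain shared by receptors of the interleukin-10 family, gave 0.13 and 0.19, a mean of 0.16 ± 0.03, but −0.00 with median centring. Il11ra1, the interleukin-11 receptor, gave 0.25 and 0.23, a mean of 0.24 ± 0.01, with 0.23 ± 0.12 at a second probe. With median centring it gave 0.06 ± 0.21, its arrays then lying on opposite sides of 0. The arch spot was the brighter in Cy3 (11424 against 9127 units) and the thoracic spot in Cy5 (13398 against 12238). A near-identical gene, Il11ra2, may share the signal of Il11ra1, which makes the value uncertain.

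The receptors of the interleukin-17 family included Il17re, which binds Il17c, at 0.14 ± 0.02. Its net signals were 28.2 (Cy5) and 44.2 (Cy3) units in the arch against 36.5 (Cy3) and 24.5 (Cy5), close to the negative controls, and its ratio was 0.47 without the offset and 0.55 by the scanner software. Il17rd, a dampener of growth factor signalling, gave 0.10 ± 0.05, turning to −0.04 with median centring. Il3ra gave 0.05 ± 0.01, turning to −0.12 with median centring. The interleukin-6 receptor chains gave 0.00 ± 0.04 for Il6ra and 0.08 ± 0.04 for Il6st (gp130), the signal-transducing chain of that family, which turned to −0.09 with median centring. Il1rl1, the receptor of interleukin-33, gave −0.01 ± 0.06. Il9r and Il23r were well above background in the arch on 1 array only, and their arrays lay on opposite sides of 0.

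Spots of the interleukins themselves were dim, 11 of 25 in the dimmest 25% of measured genes. All 25 lay within 0.2 of 0, 16 above and 9 below, with a median of 0.02. The sign was the same on both arrays for only 12 of the 25, 9 above 0 and 3 below. Across the 25 the arrays' ratios had a Pearson r of 0.06. Il1b, the cytokine that inflammasomes activate, gave −0.05 and −0.12, a mean of −0.08 ± 0.04, with −0.32 without the offset and −0.44 by the scanner software. Il6 gave −0.04 and −0.10, a mean of −0.07 ± 0.03, with −0.22 and −0.32 by those settings. The net signals of Il1b were 19.8 (Cy5) and 34.6 (Cy3) units in the arch and 38.8 (Cy3) and 26.1 (Cy5) in the thoracic aorta. In Cy3 the arch spot lay below the 95th percentile of the negative controls. Il1f8, of the interleukin-1 family, gave 0.14 ± 0.04, the highest of the ligands, Il17d 0.06 ± 0.04 and Il27 0.05 ± 0.03. Il18 gave 0.02 ± 0.01. With median centring Il17d, Il27 and Il18 turned to −0.10, −0.09 and −0.04. Il3 and Il5, known from T cells and mast cells, were well above background in the thoracic aorta on 1 array only, and gave 0.02 ± 0.11 and 0.04 ± 0.05, or 0.15 and 0.20 without the offset.

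The NF-κB subunits differed little. Nfkb1 gave −0.05 ± 0.03, Nfkb2 −0.02 ± 0.07, Rela, the main activating subunit, 0.07 ± 0.06 and Relb 0.01 ± 0.05. With median centring all 4 were below 0, Rela at −0.07. Of the 6 genes named as NF-κB inhibitors, 5 had a mean below 0, 3 of them on both arrays, with a median of −0.04. Nfkbia, which is induced by NF-κB and retains it in the cytoplasm, gave −0.15 on each array, a mean of −0.15 ± 0.00. Its net signals of 2710 and 2059 units in the arch and 2832 and 2936 in the thoracic aorta put it far above background. Nfkbiz, a nuclear IκB protein needed for a subset of NF-κB targets, gave −0.17 and −0.19, a mean of −0.18 ± 0.01, or −0.34 without the offset. Nfkbib gave −0.02 ± 0.03. Nfkbil2, now Tonsl, a replication protein, gave −0.05 ± 0.01. The 1 gene of the 6 above 0 was Nfkbil1, named after its value was seen, at 0.02 ± 0.06.

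Csf1, the growth factor of macrophages, gave 0.03 and −0.11, a mean of −0.04 ± 0.07. The remaining 4 members, grouped as binding and other named proteins, ran from −0.07 to 0.03. They included Tnfsf5ip1, now the proteasome chaperone Psmg2 (−0.03 ± 0.04), and Tnfsg5 (0.01 ± 0.03).

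**Figure D5:**
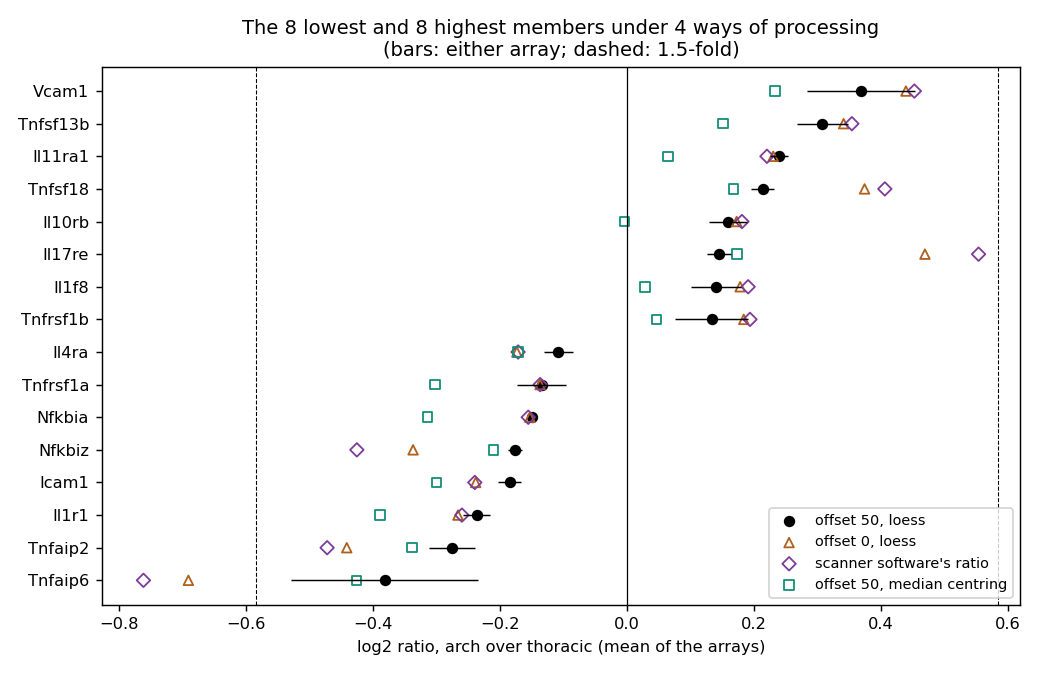
Log2 ratio of arch over thoracic aorta (x axis) of the 8 lowest and 8 highest members well above background in both regions, under 4 ways of processing; bars on the filled circles reach either array. Tnfaip6 lies at −0.38 with the offset of 50, −0.69 without it and −0.76 by the scanner software, while Vcam1 lies between 0.23 and 0.45.

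The rest of the pathway was read from lists of genes outside the name rule. Over all measured genes, 1.51% passed 1.2-fold as higher and 1.02% as lower. Of 34 kinases and adaptors that carry the signal to NF-κB, 0 passed 1.2-fold in either direction, and their median was −0.03. The lowest were Bcl3, a nuclear partner of NF-κB (−0.20 ± 0.01), and Irak2, an interleukin-1 receptor kinase (−0.17 ± 0.03), while Ikbkb, the main IκB kinase, gave −0.13 ± 0.05. Of 21 JAK, STAT and SOCS genes, which act below the interleukin receptors, 1 passed 1.2-fold as lower and 0 as higher, with a median of −0.04. It was Socs3, the feedback inhibitor of gp130 signalling, at −0.44 and −0.58, a mean of −0.51 ± 0.07, or −0.71 without the offset. Its net signals were 112 and 109 units in the arch and 186 and 192 in the thoracic aorta, while Il6, Il6ra and Il6st lay at −0.07, 0.00 and 0.08 in the same setting. Of 28 measured cytokines and receptors of these families under other names, 2 of which (Cd27 and Cd70) are members, 0 passed, with a median of 0.02. The lowest was Ltb, lymphotoxin beta (−0.25 ± 0.03). Of 9 Toll-like receptor genes and their coreceptors, 1 passed 1.2-fold as higher and 0 as lower, with a median of 0.05: Tlr5, the flagellin receptor, at 0.32 ± 0.02.

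Known NF-κB target genes outside the name rule included the lowest values of these lists. Of 23 listed 17 were measured, with a median of −0.21, 9 below 0 and 8 above. As higher, 0 passed 1.5-fold (all genes 0.255%) or 1.2-fold (1.51%). As lower, 1 passed 1.5-fold (all genes 0.227%) and 4 passed 1.2-fold (1.02%). They were the stress response gene Gadd45b (−0.70 ± 0.08, with −0.28 at another probe), the monocyte chemoattractant Ccl2 (−0.61 ± 0.10), Ier3 (−0.42 ± 0.06) and the protease Mmp3 (−0.38 ± 0.08). Other targets lay above 0, Myc at 0.17 ± 0.00 and the antioxidant enzyme Sod2 at 0.17 ± 0.03. The counts moved with the processing, as did the shares of all genes. Without the offset, 3 passed 1.5-fold (all genes 0.483%) and 8 passed 1.2-fold (2.11%) as lower. By the scanner software's ratios the same counts passed (all genes 0.599% and 2.8%). With median centring 2 and 6 passed (all genes 0.348% and 3.13%). With the mean over each gene's probes 0 and 4 passed (all genes 0.19% and 0.812%), Gadd45b then giving −0.49. In each of these settings 0 passed as higher (all genes 0.13% to 0.719% at 1.5-fold and 0.659% to 3.93% at 1.2-fold). Several of these genes are also targets of other transcription factors. The list was chosen with earlier results of these data known, so its counts beside the shares of all genes are a description only.

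Cell type markers were read beside these values. All 13 macrophage markers had a mean below 0, 11 of them on both arrays, with a median of −0.13 and Tyrobp, a myeloid adaptor, lowest (−0.35 ± 0.03). Their summed normalised signal was 25905 and 23812 units in the arch on arrays 1 and 2, against 29099 and 30640 in the thoracic aorta. Lyz2, a lysozyme gene, carried most of that sum, and the other 12 summed to 5545 and 5556 units in the arch against 6241 and 6165. In such bulk samples fewer cells of a type and less RNA per cell cannot be told apart. The 8 measured T cell markers had a median of −0.03, the 5 B cell markers 0.03 and the 6 mast cell markers 0.03. The B cell markers ran from −0.16 (Pax5) to 0.33 (Ms4a1, with 0.07 at another probe). The arch pool also held more signal from cells outside the muscular wall: all 6 adipocyte markers (median 0.55), all 6 mesothelial (0.36) and all 4 measured cardiomyocyte markers (1.23) were above 0. On arrays 1 and 2 the summed normalised signal of the adipocyte markers was 9408 and 9499 units in the arch against 5951 and 6250. For the mesothelial markers it was 1219 and 1287 against 889 and 913, and for the cardiomyocyte markers 1541 and 1584 against 644 and 684. All of these sums, and those of the macrophage markers, include the offset added in background correction for every gene. For dim genes they understate any difference between the regions. The 7 fibroblast markers ran from −0.30 to 0.55, with 4 above 0. The labels describe the wall as smooth muscle, and all 8 smooth muscle markers were measured. The spots of Acta2 and Tagln were saturated in 1 dye on each array, so no ratio is given for them. Of the other 6, 1 was above 0, with a median of −0.10. The part of these transcripts in the members' values was not tested.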

How the data were processed

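Signal was measured on 2 two-colour arrays of the same 2 RNA pools (1 µg of RNA per labelling, RNA integrity 7.5 to 7.7), and the submitters' processing notes name Agilent Feature Extraction 9.1.1.1. Per the file headers, each spot has a mean signal and a local background as intensity in each dye, and the scanner's log10 ratio of the processed signals. The series' deposited value table equalled that log10 ratio, turned to arch over thoracic, in 99.9% of features on each array (tolerance 1e-06, column medians 0); its direction was found from this match and the labelled dyes. These files name no genome build.

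From the deposited intensities, log2 ratios were computed with limma 3.58.1 in R 4.3.3: normexp background correction (offset 50), then loess within each array with control spots at weight 0. Outlier spots (20 and 4) were left out, array 2 was turned, spots of a probe were averaged, and a probe was kept if well above background on both arrays in 1 region (30521 of 41150). A gene took its brightest kept probe. Spot brightness depends on the probe and is no measure of transcript level between genes. The steps were tested on simulated data in which only bright spots carried changes, all larger than the ratios of the members. That test did not cover changes at dim spots or ratios as small as the members' own.

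Current names came from a RefSeq table (GRCm38.p6): 97 of 110 members matched by accession, 12 by symbol or synonym, and 1 kept the file's name. Named members are the 12 highest and 12 lowest well above background in both regions, those well above background on both arrays in 1 region only, 31 chosen for their role, the 2 brightest probes per role, and those whose probes differ by at least 0.5. The members, lists and rules were chosen with earlier results of these data known. Alternatives were an offset of 0, the scanner's ratios, the value table, median centring, the mean over probes, both filters, other folds (1.3 and 2), each array alone and, chosen after seeing the data, the brightest probe with a RefSeq accession.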

Additional observations from a re-analysis of the deposited data

How the results depend on the processing

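No member passed 1.5-fold as higher under any alternative run. As lower, 1 passed by the scanner's ratios (all genes 0.599%) and by the value table, Tnfaip6. With probes of RefSeq accession 1 passed, Tnfsf13b (all genes 0.232%), against 0 in the reported setting (0.227%). At 1.2-fold, the count of members higher was 4 with offset 0 (all genes 3.12%), the scanner's ratios (3.93%) and the value table. It was 0 with median centring (all genes 0.659%) and with the mean over probes (1.3%). With RefSeq probes it was 1 (all genes 1.48%), against 2 in the reported setting (1.51%). The count lower was 3 with offset 0 (all genes 2.11%), and 4 with the scanner's ratios (2.8%), the value table and median centring (3.13%). With RefSeq probes it was 1 (all genes 0.998%), against 0 in the reported setting (1.02%). On each array alone, 2 members were higher on either (all genes 3.24% and 2.73%), and 0 to 2 were lower (all genes 2.28% and 2.1%). The members' median, 0.01, was 0.031 by the scanner's ratios and the value table, −0.037 with median centring and from −0.0010 to 0.017 on each array alone. Tnfsf13b reversed, to −0.21 as the mean of its probes and −0.73 at its RefSeq probe. Of 50 named members, 23 kept their sign under every alternative, and 35 did with median centring. The cause of these shifts was not tested. With 1 pool per region and signals near the negative controls, small ratios are imprecise. No paired analysis was possible because the arrays are a dye swap of 1 pair of pools.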
